A study of Homo sapiens with 12 samples.

Results

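The prostaglandin pathway was followed here through 8 genes, chosen by symbol from the 24331 rows of the deposited expression table, each of which matched 1 row: PLA2G4A, PTGS1, PTGS2, PTGES, PTGES2, PTGES3, PTGER2 and PTGER4. Values are FPKM, the fragments assigned to a gene scaled to the length of its transcript and the size of the library, so levels can be set side by side between genes. The study asked how the transcription factor gene ETS1 is controlled in metastatic breast cancer cells, here MDA-MB-231, an established human cell line from a triple-negative tumor. WT cells and ΔCRE cells (labelled KO) were sequenced unstimulated (0 h) and after PMA/Ionomycin for 6 and 24 h. Each of the 6 conditions had 2 biological replicates, which makes 12 libraries. PMA is a phorbol ester that activates protein kinase C, and Ionomycin is an ionophore that lets calcium into the cell. In ΔCRE cells, CRISPR/Cas9 had removed the stretch with NFAT and NF-κB binding sites from the core-regulatory element of the ETS1 promoter. All libraries share the cell line, and all stimulated libraries received both agents. The number of ΔCRE clones is not given in the sources used here, so the deletion and the clone cannot be told apart.

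Prostaglandins are lipid signals that cells make on demand from arachidonic acid. Cytosolic phospholipase A2 (PLA2G4A) frees arachidonic acid from membranes, cyclooxygenases (PTGS1 and PTGS2, known as COX-1 and COX-2) turn it into prostaglandin H2, and prostaglandin E synthases (PTGES, PTGES2 and PTGES3) turn that into prostaglandin E2. Prostaglandin E2 leaves the cell and acts on E-type receptors, of which PTGER2 (EP2) and PTGER4 (EP4) raise cyclic AMP. PTGS2 is the textbook inducible step of this pathway and is switched on by phorbol esters, growth factors and cytokines in many cell types, whereas PTGS1 is regarded as the constitutive form.

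The stretches before the starts of PTGS2, PLA2G4A and PTGES are shown because these 3 genes were the members called between genotypes at 24 h. Each line gives the 250 bases before the RefSeq start (RefSeq table of GRCh38.p14), read 5′ to 3′ on the strand of the gene, and each sequence matched GRCh37 exactly once on its chromosome. Capitals mark matches, on either strand, to a TATA box (TATAAA), a cyclic AMP response core (CGTCA), an AP-1 site (TGANTCA), a C/EBP site (TTNCNNAA), an NFAT core (GGAAA), an ETS core (CCGGAA), a GC box (GGGCGG) or the NF-κB consensus.
PTGS2, minus strand, GRCh37 chr1:186649556-186649805: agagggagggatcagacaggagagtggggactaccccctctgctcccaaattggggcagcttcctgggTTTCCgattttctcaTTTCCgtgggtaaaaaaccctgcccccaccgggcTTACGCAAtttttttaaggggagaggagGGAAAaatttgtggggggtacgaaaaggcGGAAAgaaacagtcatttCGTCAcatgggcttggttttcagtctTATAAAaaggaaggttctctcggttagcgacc
PLA2G4A, plus strand, GRCh37 chr1:186797831-186798080: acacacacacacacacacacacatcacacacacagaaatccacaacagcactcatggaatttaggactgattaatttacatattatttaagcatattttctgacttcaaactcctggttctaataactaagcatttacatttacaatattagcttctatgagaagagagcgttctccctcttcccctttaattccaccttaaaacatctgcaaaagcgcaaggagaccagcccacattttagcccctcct
PTGES, minus strand, GRCh37 chr9:132515322-132515571: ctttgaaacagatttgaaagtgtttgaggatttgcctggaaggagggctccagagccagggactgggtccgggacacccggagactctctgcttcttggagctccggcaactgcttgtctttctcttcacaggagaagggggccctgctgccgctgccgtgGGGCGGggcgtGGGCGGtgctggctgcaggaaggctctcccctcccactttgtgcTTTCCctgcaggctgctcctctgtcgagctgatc

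The window of PTGS2 held 1 TATA box, 32 bases before the start, 1 cyclic AMP response core, 58 bases before it, 1 C/EBP match, 133 bases before it, and 4 NFAT cores. Among 27305 RefSeq windows of the same length, 11.1% held that TATA box, 21.7% the cyclic AMP response core, 33.6% the C/EBP match and 56.0% an NFAT core. The window of PTGES held no TATA box, 2 GC boxes (42.3% of windows held at least 1) and 1 NFAT core. None of the 8 motifs was matched in the window of PLA2G4A, where 38.8% of the bases were G or C, against 50.4% for PTGS2 and 61.2% for PTGES. All 8 genes had a window in the table. AP-1 sites (6.60% of windows) and the ETS core in the form searched, CCGGAA (14.8%), were matched in none of the 8. The NF-κB consensus was searched as GGGRNNYYCC, with R for A or G, Y for C or T and N for any base. It was matched in 9.57% of windows, and among the 8 in those of PTGES3, PTGER2 and PTGER4. Other forms of these sites were not searched, so a window without a match may still hold such a form. A match is a run of letters and not a measured binding site.

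ETS1, the targeted gene, checked the labels. It stood at 24.0 and 23.7 FPKM in WT cells at 0 h, 139.2 and 145.2 FPKM at 6 h, and 36.2 and 39.7 FPKM at 24 h. In ΔCRE cells it stood at 62.8 and 62.2 FPKM at 6 h and at 29.2 and 30.7 FPKM at 24 h, below both WT libraries of each time point. At 0 h it was 16.5 FPKM in ΔCRE replicate 2 and 5.08 FPKM in the library labelled KO 0 h replicate 1. The latter library stood apart before any comparison: its FPKM summed to 1423335 against 566255 to 651080 in the other 11, its r with the other libraries over 11256 genes was at most 0.890 against 0.978 to 0.984 between replicates, and 9 gut epithelial genes summed to 10550 FPKM in it against at most 0.446 FPKM in the others. The gut genes were chosen with earlier results of these data known, so their sum is a description and not a separate reason. On its FPKM sum and its r this library is shown apart. The tests below use 11 libraries, and calls that a fit of all 12 ended are named below. In these 11 libraries all 6 genes known to be high in MDA-MB-231 (VIM, CD44, CAV1, AXL, EGFR and PLAU) were above 1 FPKM, of 6 luminal and epithelial genes CDH1, ESR1 and PGR were at or below 0.0319 FPKM while KRT19 (32.5 to 106.5 FPKM), EPCAM (2.02 to 3.38) and GATA3 (1.76 to 3.32) were above 1 FPKM, and 5 of 6 immune genes were below 1 FPKM, CD68 being the exception. The depth of the 11, relative to WT 0 h replicate 1 and read from the steps between low values, was between 0.730 (ΔCRE 6 h replicate 1) and 1.19 (ΔCRE 24 h replicate 2).

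Differences were tested with limma on log2(FPKM + 1) over the 11256 features whose mean FPKM reached 1, and p-values were adjusted over all of them (called below 0.05). On this scale the change of a gene with few fragments comes out too small. Of the 8 members, 7 passed the filter and PTGS1 did not. In WT cells at 24 h against 0 h, 6 of the 7 tested members were called, 3 higher (PTGS2, PLA2G4A and PTGER2) and 3 lower (PTGES, PTGES3 and PTGER4), where 54.6% of all features were called. At 6 h against 0 h, 2 of 7 were called, PTGS2 higher and PTGES lower, with 44.4% of all features called. Between 6 and 24 h in WT cells 4 of 7 were called, with 46.8% of all features called, and in ΔCRE cells 5 of 7, with 49.6% of all features called. The counts of members called are to be read against these shares. All comparisons of time points lack an untreated group of the later time, so treatment and time in culture cannot be told apart. The 2 WT comparisons with 0 h share the WT 0 h libraries. The library set apart enters none of these comparisons, but with it in the fit the shared spread is wider, and 3 members (PTGS2, PLA2G4A and PTGES) were then called in WT cells at 24 h against 0 h, while PTGES3, PTGER2 and PTGER4 were not (adjusted p = 0.119, 0.313 and 0.0858). The libraries hold RNA of whole cultures, so fewer cells that express a gene and less RNA per cell cannot be told apart.

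**Figure D1:**
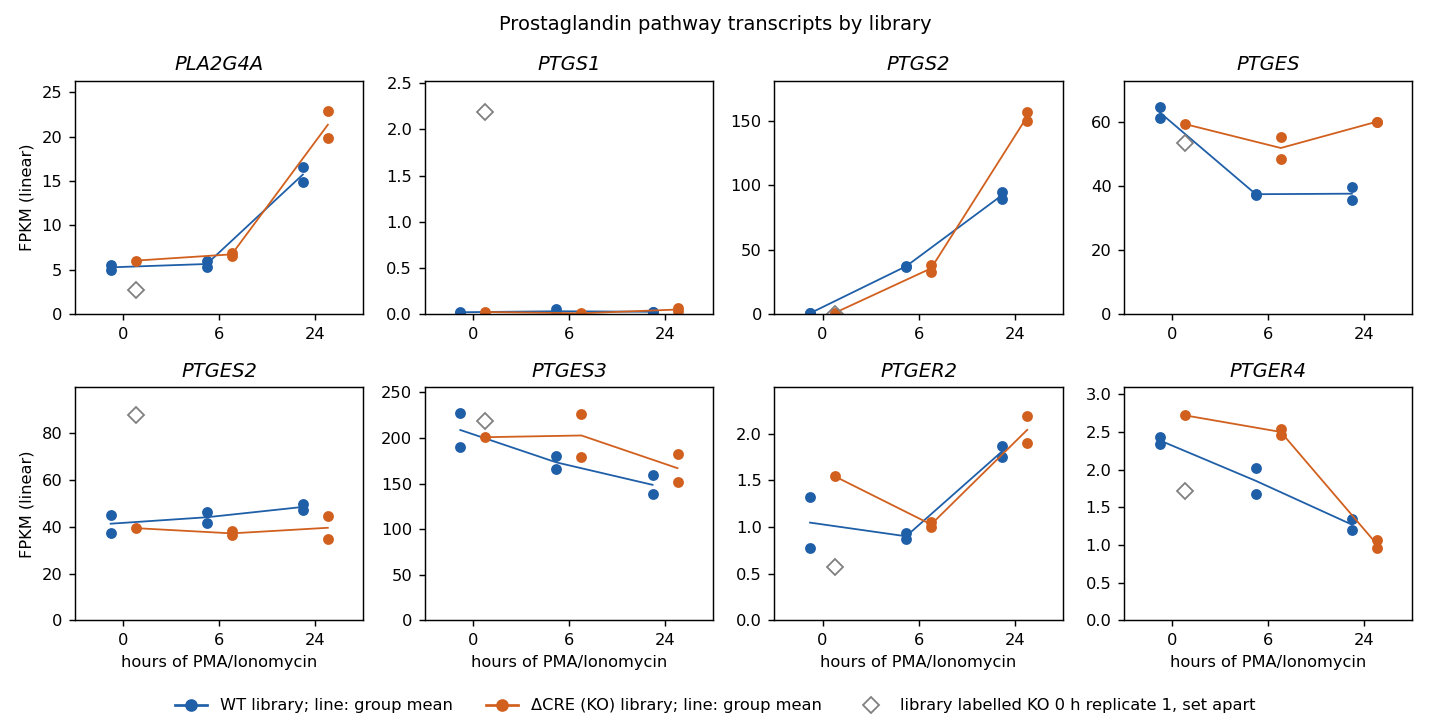
FPKM of the 8 genes (linear axes from 0) in each library at 0, 6 and 24 h of PMA/Ionomycin, evenly spaced, with WT in blue, ΔCRE in orange, lines through group means and the library labelled KO 0 h replicate 1 as a grey diamond. PTGS2 climbed from under 1 FPKM to 150.0 and 156.6 FPKM in ΔCRE cells at 24 h, and PTGES was near 37 FPKM in stimulated WT cells but 48.3 to 60.1 FPKM in stimulated ΔCRE cells.

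PLA2G4A, the enzyme that supplies arachidonic acid, rose late. Its feature spans 186798032 to 186958113 on chromosome 1 of hg19, 148 kb from that of PTGS2. It measured 5.57 and 4.95 FPKM in WT cells at 0 h, 5.34 and 5.93 FPKM at 6 h, and 14.9 and 16.6 FPKM at 24 h. In ΔCRE cells it measured 6.02 FPKM at 0 h (replicate 2), 6.88 and 6.56 FPKM at 6 h, and 19.8 and 22.9 FPKM at 24 h. The 0 h and 6 h values of WT cells overlapped, and every 24 h library lay above every earlier one. In WT cells the mean at 24 h was 2.99 times that at 0 h (log2 difference 1.42 ± 0.094, SE, adjusted p = 7.6e-06, limma), and between 0 and 6 h the difference was 0.08 (95% interval −0.13 to 0.30, adjusted p = 0.494, limma). In ΔCRE cells the mean at 24 h was 3.18 times that at 6 h (log2 difference 1.53, adjusted p = 8.8e-06, limma).

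PTGS2, the inducible cyclooxygenase, showed the widest range of the 8. Its feature spans 186640944 to 186649559 on chromosome 1 of hg19. It stood at 0.476 and 0.608 FPKM in WT cells at 0 h, 36.7 and 37.3 FPKM at 6 h, and 89.55 and 95.03 FPKM at 24 h. In ΔCRE cells it stood at 0.913 FPKM at 0 h (replicate 2), 32.5 and 38.3 FPKM at 6 h, and 150.0 and 156.6 FPKM at 24 h. No library of a later time point overlapped an earlier one in either genotype, and WT and ΔCRE libraries overlapped at 6 h alone. The WT mean at 6 h was 68.3 times that at 0 h (log2 difference 4.62 ± 0.083, SE, adjusted p = 2.7e-09, limma), the 19th highest difference of the 11256 features. At 24 h the WT mean was 170.2 times that at 0 h (log2 difference 5.92, adjusted p = 1.2e-09, limma), the 3rd highest. Between 6 and 24 h the mean rose 2.49 times in WT cells (log2 difference 1.29, adjusted p = 1.4e-05) and 4.33 times in ΔCRE cells (2.09, adjusted p = 9.6e-07, limma). With a pseudocount of 0.1 in place of 1 the log2 differences of WT cells from 0 h became 5.86 at 6 h and 7.18 at 24 h.

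PTGS1, the other cyclooxygenase, was close to absent. It measured between 0 and 0.0609 FPKM in the 11 libraries, against 2.19 FPKM in the library set apart. Taking the WT 0 h replicate 2 value of 0.0127 FPKM as 1 fragment, the values of the others came within 0.303% of whole fragments, from 0 to 6 fragments in the 11 libraries and 150 in the library set apart. A listed value of 0, as in WT 6 h replicate 2 and ΔCRE 6 h replicate 1, allows up to 3 fragments, or 0.0344 and 0.0498 FPKM, by counting error alone. Small differences between conditions were therefore out of reach at this depth. In the fit without filter PTGS1 was called in no comparison. Its lowest adjusted p was 0.178 (ΔCRE cells, 24 h against 6 h, limma). In unstimulated WT cells the means of PTGS1 and PTGS2 were 0.0185 and 0.542 FPKM, so both cyclooxygenase transcripts were under 1 FPKM before stimulation.

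PTGES, the inducible membrane-bound prostaglandin E synthase known as mPGES-1, went down in WT cells as PTGS2 went up. It lies on chromosome 9 of hg19 from 132500615 to 132515344. WT cells held 64.7 and 61.2 FPKM at 0 h, 37.5 and 37.2 FPKM at 6 h, and 39.6 and 35.5 FPKM at 24 h. ΔCRE cells held 59.3 FPKM at 0 h (replicate 2), 55.3 and 48.3 FPKM at 6 h, and 60.0 and 60.1 FPKM at 24 h. All 4 stimulated WT libraries lay below every other library. The WT mean fell to 59.4% of the 0 h mean at 6 h (log2 difference −0.74 ± 0.076, SE, adjusted p = 1.2e-04, limma) and was at 59.7% of it at 24 h (−0.73, adjusted p = 9.2e-05, limma). In ΔCRE cells the 24 h mean was 1.16 times that at 6 h (log2 difference 0.21, adjusted p = 0.0461, limma). This last call was lost without filter (adjusted p = 0.0691), without trend (0.0599), in a separate fit (0.0751), with all 12 libraries (0.327) and on leaving out any of 7 libraries. Among those 7 the highest adjusted p was 0.272, without ΔCRE 6 h replicate 2, where the log2 difference was 0.12.

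PTGES2, a membrane-associated prostaglandin E synthase, and PTGES3, the cytosolic one, also known as the HSP90 co-chaperone p23, were the other abundant members. PTGES2 stayed between 34.7 and 49.7 FPKM in the 11 libraries and was called in no comparison. PTGES3 was the most abundant member in each of the 12 libraries, between 138.2 and 227.7 FPKM in the 11. In WT cells it measured 189.8 and 227.7 FPKM at 0 h, 165.9 and 180.5 FPKM at 6 h, and 138.2 and 159.1 FPKM at 24 h. Its 24 h mean was 71.2% of the 0 h mean (log2 difference −0.48 ± 0.14, SE, adjusted p = 0.0186, limma). Leaving out WT 0 h replicate 2 (−0.35, adjusted p = 0.126) or WT 24 h replicate 1 (−0.38, adjusted p = 0.116) ended this call. With the replicate number as a block the adjusted p of this difference was 1.7e-04 (limma). PTGES3 was higher in replicate 2 than in replicate 1 in every condition fitted with both. GENCODE lists 5 pseudogenes of PTGES3 on GRCh37, and how fragments shared with them were assigned is not given, so its level is uncertain to that extent.

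Both receptors were expressed at low levels, and they moved in opposite directions late in the time course. PTGER2 measured 0.770 and 1.32 FPKM in WT cells at 0 h, 0.932 and 0.869 FPKM at 6 h, and 1.75 and 1.87 FPKM at 24 h. In ΔCRE cells it measured 1.54 FPKM at 0 h (replicate 2), 1.05 and 0.9995 FPKM at 6 h, and 2.19 and 1.89 FPKM at 24 h. PTGER4 measured 2.35 and 2.43 FPKM in WT cells at 0 h, 2.02 and 1.68 FPKM at 6 h, and 1.20 and 1.34 FPKM at 24 h. In ΔCRE cells PTGER4 measured 2.72 FPKM at 0 h (replicate 2), 2.46 and 2.54 FPKM at 6 h, and 0.956 and 1.06 FPKM at 24 h. At 0 and 6 h PTGER4 was thus the higher of the pair in each of the 11 libraries, and at 24 h PTGER2 was.

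The rise of PTGER2 between 6 and 24 h was 2.01 times in WT cells (log2 difference 0.56 ± 0.13, SE, adjusted p = 0.0077, limma) and 1.99 times in ΔCRE cells (0.58, adjusted p = 0.0061, limma). With all 12 libraries neither was called (adjusted p = 0.282 and 0.237). Against 0 h the WT difference was 0.47 (adjusted p = 0.0147), and it missed the threshold without WT 0 h replicate 1 (0.27, adjusted p = 0.0619, limma) or WT 24 h replicate 2 (0.44, adjusted p = 0.0651). PTGER4 fell between 6 and 24 h to 68.6% in WT cells (log2 difference −0.33 ± 0.090, SE, adjusted p = 0.0175, limma) and to 40.4% in ΔCRE cells (−0.80, adjusted p = 1.9e-04, limma). Against 0 h it stood at 53.2% in WT cells at 24 h (−0.58, adjusted p = 8.5e-04, limma), whereas the earlier difference, of 6 h, was −0.25 (95% interval −0.46 to −0.045, adjusted p = 0.0512, limma). The 6 h difference passed with TPM (−0.38, adjusted p = 0.0280), without trend (0.0244) and without WT 6 h replicate 1 (−0.34, 0.0402). The WT call between 6 and 24 h was lost with all 12 libraries (adjusted p = 0.389), with TPM (−0.30, adjusted p = 0.0692), without WT 6 h replicate 1 (−0.24, 0.1004) and without WT 24 h replicate 1 (−0.28, 0.0950). The feature of PTGER4 lies inside the annotated span of TTC33 on the other strand, and whether strand was used in counting is not given. GENCODE also lists 2 pseudogenes of PTGER4, PTGER4P2 (transcribed) and PTGER4P3, and how fragments shared with them were assigned is not given.

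**Figure D2:**
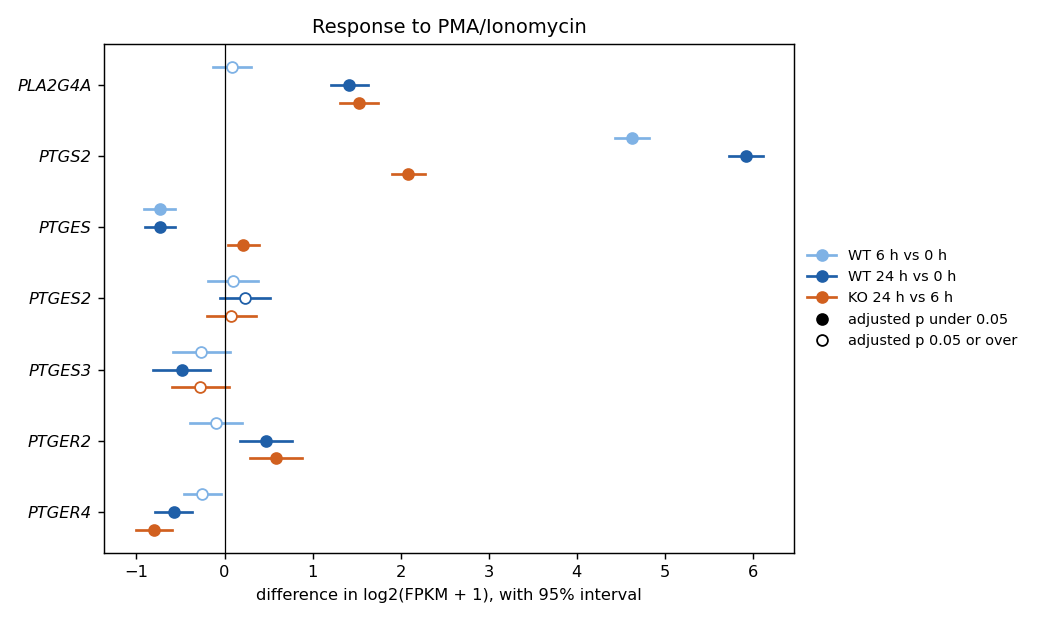
Difference in log2(FPKM + 1) with its 95% interval for the 7 tested genes in WT cells at 6 h (light blue) and 24 h (dark blue) against 0 h, and in ΔCRE cells at 24 h against 6 h (orange), with filled points where the adjusted p was under 0.05. PTGS2 reached 5.92 at 24 h in WT cells, PLA2G4A moved at 24 h and not at 6 h, and PTGES sat at −0.74 and −0.73.

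Comparing ΔCRE with WT cells asks whether loss of the regulatory element goes with other levels of these genes. At 24 h, 3 of the 7 tested members were called (6.33% of all features), each higher in ΔCRE cells. They were PTGS2 (the inducible cyclooxygenase), PTGES (the inducible synthase) and PLA2G4A (the phospholipase). The 24 h mean of PTGS2 was 153.3 ± 4.67 FPKM (SD, n = 2) in ΔCRE and 92.3 ± 3.87 FPKM (SD, n = 2) in WT cells, a ratio of 1.66 (log2 difference 0.73 ± 0.083, SE, adjusted p = 0.0024, limma). That of PTGES was 60.0 ± 0.066 FPKM (SD, n = 2) against 37.6 ± 2.84 FPKM (SD, n = 2), a ratio of 1.60 (log2 difference 0.66, adjusted p = 0.0024, limma). That of PLA2G4A was 21.3 ± 2.16 FPKM (SD, n = 2) against 15.7 ± 1.23 FPKM (SD, n = 2), a ratio of 1.36 (log2 difference 0.42, adjusted p = 0.0371, limma). For PTGS2 and PTGES this call held on leaving out each of the 11 libraries, with adjusted p of at most 0.0329 and 0.0248. For PLA2G4A it was lost on leaving out any of the 8 stimulated libraries (log2 differences of 0.32 to 0.52, adjusted p up to 0.243), without filter (adjusted p = 0.0706), with TPM (0.0621) and in a separate fit (0.0883). With all 12 libraries in the fit the log2 differences were the same, none of the 3 was called, and the adjusted p was 0.662 for PTGS2, 0.140 for PTGES and 1.0 for PLA2G4A.

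At 6 h, PTGES alone was called (1 of 7 members, 9.83% of all features). Its mean was 51.8 ± 4.95 FPKM (SD, n = 2) in ΔCRE and 37.4 ± 0.210 FPKM (SD, n = 2) in WT cells, a ratio of 1.39 (log2 difference 0.46 ± 0.076, SE, adjusted p = 0.0080, limma). The call was lost without WT 6 h replicate 1 (adjusted p = 0.0637) or replicate 2 (0.0582) and with all 12 libraries (0.319), with log2 differences of 0.46, 0.45 and 0.46. PTGS2 measured 35.4 and 37.01 FPKM on average in ΔCRE and WT cells at 6 h, and the difference of −0.07 had a 95% interval of −0.26 to 0.12. PTGER4 was 1.35 times the WT mean at 6 h (log2 difference 0.30, adjusted p = 0.0788). At 24 h it was 79.5% of it (−0.18, adjusted p = 0.313, limma). It passed at 6 h with quantile normalization (adjusted p = 0.0426) and without trend (0.0418).

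Before stimulation none of the 7 members was called (1.69% of all features), with a single ΔCRE library that is assumed to vary like the other groups. The unadjusted p of PTGS2 was 0.0147 and those of the other 6 were at least 0.0737. PTGS2 stood at 0.913 FPKM in ΔCRE replicate 2, 0.191 FPKM in the library set apart and 0.476 and 0.608 FPKM in WT cells (log2 difference 0.31 without the library set apart, adjusted p = 0.198, and −0.030 with it, adjusted p = 0.919, limma). With a pseudocount of 0.1 its difference without that library was 0.66 with an adjusted p of 0.0452. PTGES at 0 h lay at 59.3 FPKM in ΔCRE replicate 2, just below the WT libraries at 61.2 and 64.7 FPKM (log2 difference −0.08, 95% interval −0.30 to 0.13, adjusted p = 0.749, limma). The other values in the library set apart were 2.67 FPKM for PLA2G4A, 53.2 for PTGES, 87.9 for PTGES2, 218.6 for PTGES3, 0.567 for PTGER2 and 1.72 for PTGER4. As listed, PTGS1 and PTGES2 in it were above every one of the other 11 libraries, and PTGS2, PLA2G4A and PTGER2 were below every one of them. The FPKM of that library summed to 1423335, against 566255 to 651080 in the other 11, and these values were not rescaled. A higher listed value in it, as for PTGES2, is therefore not by itself a larger share of the library.

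**Figure D3:**
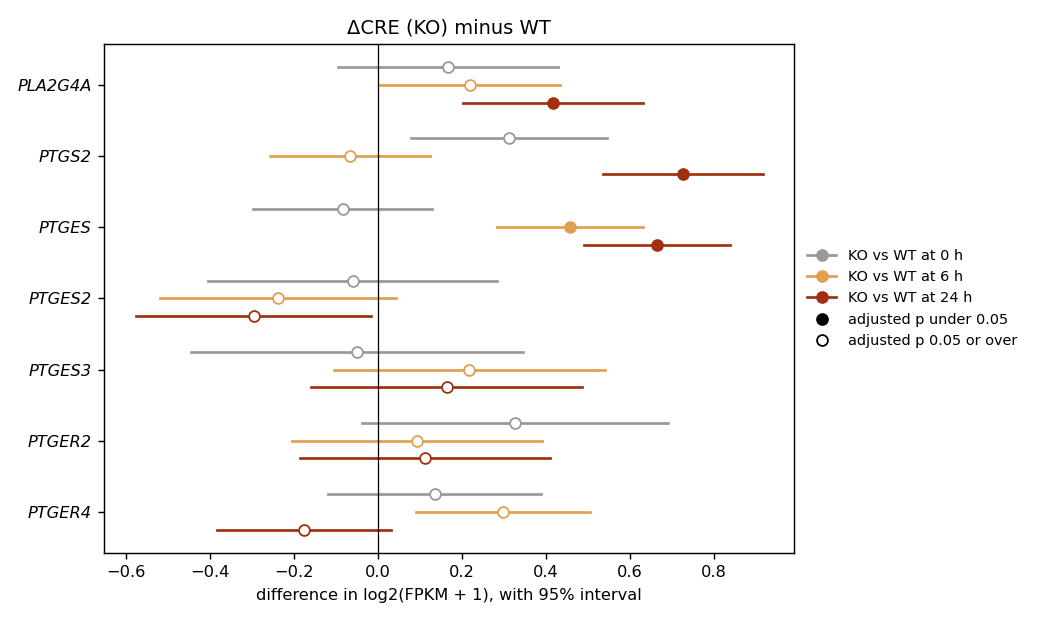
Difference between ΔCRE and WT cells in log2(FPKM + 1) with its 95% interval for the 7 tested genes at 0 h (grey, 1 ΔCRE library), 6 h (light orange) and 24 h (dark red), with filled points where the adjusted p was under 0.05. PTGES was called at 6 and 24 h (0.46 and 0.66), and PTGS2 (0.73) and PLA2G4A (0.42) at 24 h.

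Whether the difference between genotypes itself changed with time was tested as an interaction. Between 6 and 24 h limma called 0 of the 7 members (0.160% of all features). An unadjusted p under 0.05 was reached by PTGS2 and PTGER4, and how many of all features reached it was not counted. The interaction of PTGS2 was 0.79 on the log2 scale (95% interval 0.52 to 1.06, unadjusted p = 1.2e-04, adjusted p = 0.0586, limma), just short of the threshold. Of 8 other settings with the 11 libraries, 2 passed: a filter at a mean FPKM of 5 (adjusted p = 0.0414, limma) and the replicate block (0.0150). In the rest the adjusted p reached 0.2055, and with all 12 libraries the interaction was not called. It passed without ΔCRE 0 h replicate 2 (0.0491), the only pass among 11 fits that left out 1 library. Over those fits the log2 interaction of PTGS2 lay between 0.68 and 0.91. That of PTGER4 was −0.47 (unadjusted p = 0.0055, adjusted p = 0.405, limma). Between 0 and 6 h limma again called 0 of the 7 (0.267% of all features). Here PTGES and PTGS2 had an unadjusted p under 0.05, again without a count over all features. The interaction of PTGES was 0.54 (95% interval 0.27 to 0.82, unadjusted p = 0.0018, adjusted p = 0.210, limma). That of PTGS2 was −0.38 (unadjusted p = 0.0195, adjusted p = 0.482, limma).

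PTGES and PTGES2 share the end of the long arm of chromosome 9, where most genes were lower in ΔCRE cells. In the 10 Mb from 130 Mb, 129 of 140 tested features had a negative difference at 24 h, with a median of −0.28, and 43 were called lower and 3 higher. PTGES was among the 3 higher ones at 0.66, whereas PTGES2 at −0.30 (adjusted p = 0.211) lay near the median of the segment. In the segment of PTGS2 and PLA2G4A, from 180 Mb on chromosome 1, the median of 28 features at 24 h was 0.13, and those 2 genes were the only ones called higher. Around PTGER2 (0.11), from 50 Mb on chromosome 14, 7 of 62 features were negative at 24 h. Their median was 0.16, with 7 called higher and 0 lower. Around PTGS1, from 120 Mb on chromosome 9, 33 of 40 were negative, with a median of −0.17. The segment medians were 0.11 for PTGER4 and 0.035 for PTGES3.

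**Figure D4:**
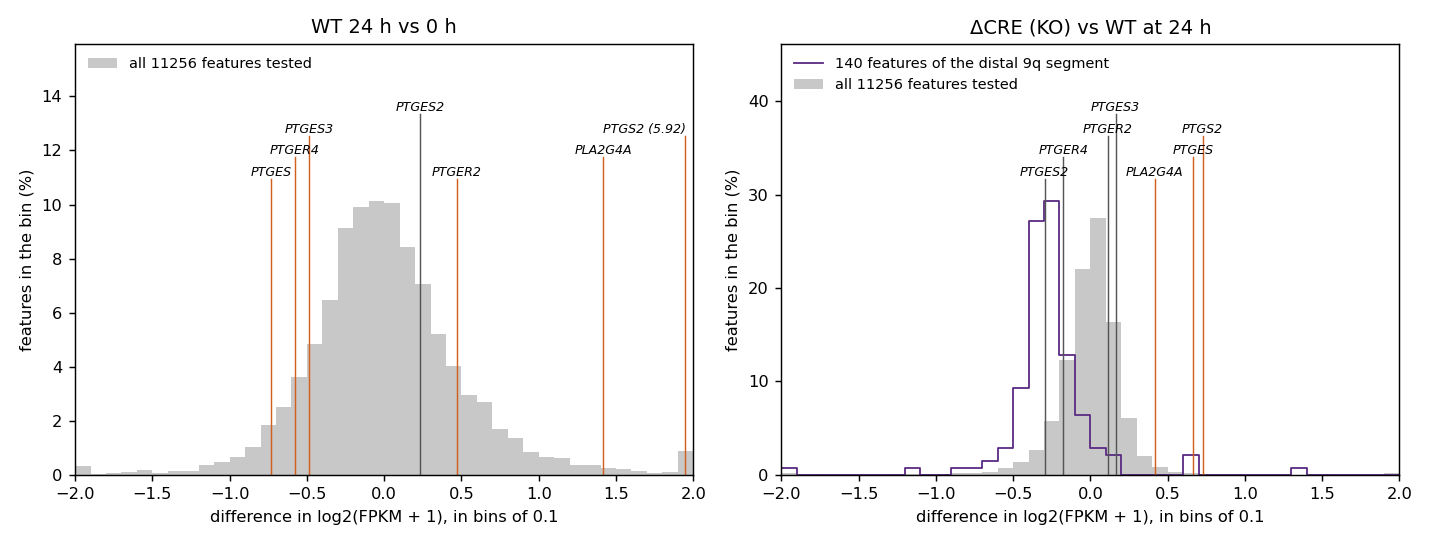
Share of features (%) by difference in log2(FPKM + 1), in bins of 0.1, with values beyond −2 or 2 gathered in the outermost bins: all 11256 tested features in grey, the 140 features of the chromosome 9 segment as a purple outline, and the 7 members as lines (orange where called). In WT cells at 24 h the members spread from −0.73 (PTGES) to 5.92 (PTGS2), and in ΔCRE against WT cells PTGES lay at 0.66 while its segment centered on −0.28.

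The rest of the pathway was read from a list of 43 genes, of which 19 passed the filter on low values. In WT cells at 24 h against 0 h, 10 of the 19 were called higher and 4 lower (54.6% of all features were called), with a median log2 difference of 0.19 against −0.02 over all features. Among phospholipases and their inhibitor, PLA2G15, the lysosomal phospholipase, rose (0.81, adjusted p = 2.0e-04) and ANXA1, a protein known to restrain phospholipase A2, fell (−0.51, adjusted p = 5.8e-05, limma) at a mean level of 536.3 FPKM. The phospholipases PLA2G4B (0.78) and PLA2G16 (0.19) were called higher and PLA2G12A lower (−0.30, adjusted p = 0.0482, limma). The row of PLA2G4B also holds JMJD7, so its value is not that of 1 gene. PLA2G6 (0.13) and PLAA (−0.070) were not called. Among other terminal enzymes, AKR1C3, which makes prostaglandin F, was called lower at 6 h (−0.54) and higher at 24 h (0.81), and the aldose reductase AKR1B1 was higher at both times (0.61 and 0.47), each against 0 h in WT cells. At 24 h the thromboxane synthase TBXAS1 (0.61) and the carbonyl reductase CBR1 (0.35) were called higher, and CBR3 (−0.054) and FAM213B (−0.043) were not called. HPGD, which inactivates prostaglandin E2, rose at 24 h from low levels (0.47, adjusted p = 0.0129, limma), PTGR2, a reductase of prostaglandin breakdown products, was called higher (0.28, adjusted p = 0.0198, limma), and ABCC4, an exporter of prostaglandins, fell (−0.39, adjusted p = 0.0308, limma). Of the 7 other prostanoid receptors, the thromboxane receptor TBXA2R alone passed the filter and it was higher at 24 h (0.48, adjusted p = 0.0059, limma), while PTGER1 and PTGER3 stayed at or below 0.134 FPKM in the 11 libraries. In the lipoxygenase branch LTA4H, the leukotriene A4 hydrolase, alone passed, ALOX5 was listed at 0 in all 11, and LTA4H was lower at 24 h in WT cells (−0.39, adjusted p = 5.6e-04, limma).

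Between genotypes 2 of these 19 genes were called at 6 h (10.5%, against 9.83% of all features), 2 at 24 h (10.5%, against 6.33%) and 1 at 0 h (5.26%, against 1.69%). PTGR1, an enzyme that reduces prostaglandin and leukotriene breakdown products, was higher in ΔCRE cells at 0 h (0.45, adjusted p = 0.0243, limma), at 6 h (0.66, 5.0e-04) and at 24 h (0.37, 0.0108). ANXA1 was higher at 24 h (0.30, adjusted p = 0.0107) and PLA2G16 lower at 6 h (−0.32, adjusted p = 0.0116, limma).

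PTGS2 mRNA is known to be short-lived and to be bound by proteins that recognize AU-rich stretches. Of 10 genes of such proteins, all of which passed the filter, 2 were called higher and 7 lower in WT cells at 24 h against 0 h, where 54.6% of all features were called. ZFP36 and ZFP36L1, of the tristetraprolin family that speeds decay of these mRNAs, rose (1.48 and 0.59), and ZFP36L2 of the same family fell (−1.04, adjusted p = 6.8e-06, limma). ELAVL1 (HuR), which stabilizes them, was lower (−0.23, adjusted p = 0.0125, limma). KHSRP (−0.57), HNRNPD (−0.32), TIA1 (−0.24), CELF2 (−0.62) and RBM3 (−0.50) were the other lower ones, and TIAL1 (0.051) was not called. Between genotypes 2 of the 10 were called at 6 h (9.83% of all features), ZFP36L2 higher (0.39, adjusted p = 0.0098, limma) and TIAL1 lower (−0.24, adjusted p = 0.0495, limma) in ΔCRE cells. At 24 h TIAL1 alone was called (6.33% of all features), again lower (−0.28, adjusted p = 0.0370, limma).

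The genes whose pattern over the 11 libraries was most like that of each member were found by Pearson's r of log2(FPKM + 1), a description over libraries that share treatment and genotype. For PTGS2 they were IER3, SLC20A1 and ITGA2 (r of 0.995, 0.995 and 0.994). For PLA2G4A they were ACAT2, DDX17 and SRD5A3 (0.992, 0.991 and 0.989). GEM, DDX59 and TMEM2 came nearest to PTGES (0.945, 0.945 and 0.924), and GEM averaged 18.0 FPKM in WT cells at 0 h, 9.49 at 6 h and 10.5 at 24 h against 13.9 and 15.0 in ΔCRE cells at 6 and 24 h. SERINC2 was nearest to PTGER2 (0.966), JPH1 to PTGER4 (0.978) and SUZ12 to PTGES3 (0.974).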

How the data were processed

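RNA of MDA-MB-231 cells, WT or ΔCRE, was sequenced at 3 times of PMA/Ionomycin (0, 6 and 24 h), in 12 libraries grouped by the genotype, time and replicate in their labels. The authors made stranded mRNA libraries, mapped them to hg19 with TopHat, estimated expression with Cufflinks and deposited 1 FPKM value per library for 24331 features. Gene annotation, further scaling and use of strand are not given in the sources used here. Absolute depth is unknown, and relative depth came from the steps between low values. Cuffdiff, used in the study, needs reads.

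The deposited FPKM values were put on the scale log2(FPKM + 1) and fitted in R 4.3.3 with limma 3.58.1 (lmFit, eBayes with trend, 1 model of the 6 conditions) on the 11256 features that averaged 1 FPKM or more in 11 libraries. P-values of 9 comparisons were adjusted by Benjamini-Hochberg over all features, and the fit was tested on simulated data. Alternatives were no filter or one at a mean of 5 FPKM, a pseudocount of 0.1, TPM, quantile normalization, all 12 libraries, no trend, the replicate number as a block, separate fits and leaving out each library. Windows before gene starts came from RefSeq and were matched to GRCh37, annotation from GENCODE release 44. The members and all lists were chosen with earlier results of these data known. All members are named, as are ETS1, the pathway genes tested, and the 3 genes most like each called member. PTGER1, PTGER3 and ALOX5 were named after their values were seen. For 3 members only the nearest is printed.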

Additional observations from a re-analysis of the deposited data

Results flagged for a closer look

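In 2 members the libraries of both genotypes changed sides between time points. At 6 h both ΔCRE libraries lay above both WT libraries in PTGER4, and at 24 h both lay below, with a log2 interaction of −0.47 between these times (adjusted p = 0.405, limma). At 0 h PTGES was lower in the single ΔCRE library than in each WT library, and at 6 h both ΔCRE libraries lay above the WT ones, with a log2 interaction of 0.54 (adjusted p = 0.210, limma). Neither interaction passed the adjusted threshold. How many of all features changed sides was not counted, so the 2 members have no share to be read against. At 6 h, 4 of the 7 tested members had ΔCRE libraries all above the WT ones and 1 all below. Among all features tested, 54.6% did not overlap at 6 h. At 24 h, 6 of the 7 tested members had ΔCRE and WT libraries that did not overlap (4 higher and 2 lower), as did 51.8% of all features tested.

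In the library labelled KO 0 h replicate 1, which enters only the fits of all 12 libraries, PTGS1 stood at 2.19 FPKM, against at most 0.0609 FPKM in the other 11 libraries. The 9 gut epithelial genes, from 32.3 FPKM (VIL1) to 4722 FPKM (REG1A) in that library, also stood above the other 11. So did other marker genes, such as EPCAM (1139 FPKM), KRT19 (1848 FPKM) and LYZ (361 FPKM), while GATA3 (2.38 FPKM) and CD68 (89.0 FPKM) did not. All of this rests on 1 library, and the part of these genes in the value of PTGS1 was not tested.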

How the results depend on the processing

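Of the 21 member differences called, 21 kept direction and call with a pseudocount of 0.1, with quantile normalization and with the replicate block, 20 without trend, and 19 each with TPM, no filter and separate fits. At a mean FPKM of at least 5, the 15 calls that could be tested were kept. With all 12 libraries 10 kept the call and none changed direction. Counts of members called that moved by over 1.5 times were these. With all 12 libraries they became 3 (WT, 24 h against 0 h), 2 (WT, 24 h against 6 h), 3 (ΔCRE, 24 h against 6 h), and 0 for ΔCRE against WT at 6 h and at 24 h. With a mean FPKM of at least 5, where both receptors are removed, they became 2 and 3 for 24 h against 6 h in WT and ΔCRE cells and 1 for the interaction of 24 and 6 h. ΔCRE against WT at 6 h gave 2 with quantile normalization, without trend and with the replicate block, ΔCRE against WT at 0 h gave 1 with a pseudocount of 0.1, and the interaction gave 1 with the replicate block (PTGS2, adjusted p = 0.0150). Smaller moves were 2 to 3 (WT, 6 h against 0 h: TPM, replicate block, no trend), 6 to 4 (WT, 24 h against 0 h: mean FPKM of at least 5), 4 to 3 with TPM and 5 with the block (WT, 24 h against 6 h), 5 to 6 with the block and 4 with no filter, no trend and a separate fit (ΔCRE, 24 h against 6 h), and 3 to 2 with no filter, TPM and a separate fit (genotypes at 24 h). The calls that the block added, apart from PTGS2, were those of PTGES3 at 6 h against 0 h and 24 h against 6 h in WT cells, at 24 h against 6 h in ΔCRE cells and between genotypes at 6 h (adjusted p = 0.0045, 0.0092, 0.0032 and 0.0307). Leaving out 1 library, with a lone sample assumed to vary like the other groups, gave 2 to 3 for WT at 6 h and 5 to 6 at 24 h against 0 h, 3 to 4 and 4 to 5 for 24 h against 6 h in WT and ΔCRE cells, 0 to 1 and 2 to 3 for ΔCRE against WT at 6 and 24 h, and 0 to 1 for the interaction of 24 and 6 h. The labels give a replicate number and no other pairing. Correlations of the deviations of same-numbered libraries, over all features tested, lay between −0.068 and 0.20. Single genes can differ from this: for PTGES3, replicate 2 lay above replicate 1 in every condition fitted with both. Directions turned only for differences that were not called: in WT cells at 6 h PTGES2 with quantile normalization (−0.0094) and TPM (−0.025) and PLA2G4A with TPM (−0.020); between genotypes at 0 h with all 12 libraries PTGS2 (−0.030), PTGES2 (0.51), PTGES3 (0.0115), PLA2G4A (−0.30), PTGER2 (−0.023) and PTGER4 (−0.091), and PTGES2 with the replicate block (0.017); in the interactions PTGER2 with a pseudocount of 0.1 (−0.0115) and with all 12 libraries (0.12). On leaving out 1 library the ranges that crossed 0 were PTGES2 −0.035 to 0.22 and PTGER2 −0.29 to 0.10 (WT, 6 h against 0 h), PTGES −0.071 to 0.079 (WT, 24 h against 6 h), PTGES2 −0.096 to 0.25 (ΔCRE, 24 h against 6 h), PTGS2 −0.18 to 0.050 (genotypes at 6 h), PTGES2 −0.19 to 0.069 and PTGES3 −0.18 to 0.081 (genotypes at 0 h), PTGES3 −0.22 to 0.11, PTGER2 −0.051 to 0.088 and PTGES2 −0.23 to 0.11 (interaction of 24 and 6 h), and PLA2G4A −0.018 to 0.12 (interaction of 6 and 0 h). Over all features, calls between genotypes at 0, 6 and 24 h numbered 190, 1107 and 712, against 17, 20 and 17 with all 12 libraries, 655, 1805 and 1407 with the replicate block and 111, 717 and 324 in separate fits. TPM shifted the median of all features by −0.115 (WT, 6 h against 0 h) and 0.105 (WT, 24 h against 6 h), and the share of higher calls from 52.5% to 35.0% and from 43.7% to 64.3%, and between genotypes at 24 h from 37.2% to 24.7%. The causes were not tested. FPKM without counts and 2 libraries a condition limit precision, most of all for PTGS1 and both receptors.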
